A study of Mus musculus with 30 samples.

Results

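The genes described are 9 subunit genes of the Polycomb complexes: Ezh1, Ezh2, Eed, Suz12, Jarid2, Mtf2, Cbx2, Cbx7 and Cbx8. They were taken as the rows of the count table whose gene identifier maps to these symbols, and all 9 of the 55421 genes in the table were found. Each passed the filter on low counts, so all 9 are among the 19868 genes tested. Their counts per library ran from 63, for Cbx8, to 22037, for Suz12.

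The samples were mouse E14 embryonic stem cells of XY karyotype and 129P2/Ola background, kept in serum with leukemia inhibitory factor, PD0325901 and CHIR-99021. The series concerns cofactors of cohesin, the ring-shaped complex that folds chromatin into loops. Polyadenylated RNA was sequenced in 30 libraries of 5 lines, from cells left untreated or treated for 24 h. That makes 10 groups of 3 libraries. All 5 lines carry Tir1, the plant receptor through which auxin sends a protein with an auxin-inducible degron (AID) to the proteasome. The control line, called TIR1 here (EN148.10), has no other listed allele. The PDS5AB line (EN293.1) adds PDS5A-AID and PDS5B-AID, and the WAPL line (CMW184) adds WAPL-AID. The PDS5AB-NIPBL line (EN331.2) carries PDS5A-AID, PDS5B-AID, NIPBL-FKBP and RAD21-Halo, and the WAPL-NIPBL line (EN382.1) carries WAPL-AID, NIPBL-FKBP and RAD21-Halo. FKBP is a degron that answers to dTAG-13, and Halo is a tag on RAD21, a core cohesin subunit. Treatment was 500 µM auxin in the TIR1, PDS5AB and WAPL lines, and auxin with 500 nM dTAG-13 in both NIPBL lines. The degrons remove proteins and not messages, each genotype is a single named line, and no group received dTAG-13 without a degron for it. The labels do not say that replicates came from separate cultures, so the p-values measure the spread between these libraries, which may be technical.

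Polycomb proteins keep developmental genes silent in embryonic stem cells through a pair of chromatin-modifying complexes. Polycomb repressive complex PRC2 methylates lysine 27 of histone H3: Ezh2 and its paralogue Ezh1 carry the catalytic site, Eed and Suz12 are the other core subunits, and Jarid2 and Mtf2 are accessory subunits that help bring the complex to CpG-rich chromatin. Canonical PRC1 reads that mark through a Cbx chromodomain protein. Cbx7 is the Cbx subunit best known in pluripotent cells, and Cbx2 and Cbx8 are best known for rising during differentiation. In RNA from bulk cultures, fewer cells of a type and less RNA per cell cannot be told apart.

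Library totals ran from 19632704 to 45539021 counted fragments. Markers of the labelled cell type were present: the summed level of 11 embryonic stem cell markers was 6412 to 7162 CPM (fragments counted for a gene relative to the TMM-scaled library total) in untreated libraries and 4079 to 6572 CPM in treated ones, with none of the 11 at 0 in any group. The library numbers in the labels form a set from 1 to 21, which holds untreated TIR1 and both PDS5AB groups, and a set from 25 to 45, which holds all other groups. The treatment effect in the TIR1 line, each comparison of another line's effect with it, and the baselines of 3 lines against TIR1 cross these sets, so set and group cannot be told apart there. The comparison of the PDS5AB-NIPBL effect with that of PDS5AB also crosses them, and set and line cannot be told apart in it. The treatment effects of the 4 degron lines each lie within a set.

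3 members were chosen to show the sequence before a RefSeq transcription start: Cbx8, Eed and Cbx7. Cbx8 had the largest rise, Eed the largest fall, and Cbx7 was the most abundant of the Cbx2, Cbx6, Cbx7 and Cbx8 messages. The sequences are from RefSeq on GRCm38.p6, on the minus strand in each case, and stop before the first annotated exon base met. Those of Cbx8 and Eed adjoin the 5′ end of the gene in the GENCODE annotation. That of Cbx7 lies inside its GENCODE span (79915807 to 79971119) and precedes an internal start. Capitals mark the CG pairs, which are frequent in promoters of the CpG-rich class.
Cbx8, chr11:119040970-119041163: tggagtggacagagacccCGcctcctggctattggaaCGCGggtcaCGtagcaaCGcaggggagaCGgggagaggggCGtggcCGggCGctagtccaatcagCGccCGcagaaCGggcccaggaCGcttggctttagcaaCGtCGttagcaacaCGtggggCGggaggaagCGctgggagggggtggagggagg
Cbx7, chr15:79932769-79932896: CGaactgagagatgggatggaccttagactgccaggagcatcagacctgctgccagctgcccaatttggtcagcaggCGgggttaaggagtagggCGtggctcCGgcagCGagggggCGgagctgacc
Eed, chr7:89980984-89981226: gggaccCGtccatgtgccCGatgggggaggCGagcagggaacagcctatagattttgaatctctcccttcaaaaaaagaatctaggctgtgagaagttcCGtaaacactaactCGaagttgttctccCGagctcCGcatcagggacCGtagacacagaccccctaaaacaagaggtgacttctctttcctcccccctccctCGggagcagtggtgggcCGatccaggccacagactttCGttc
The Cbx8 stretch holds 18 CG pairs in 194 bases, the Cbx7 stretch 6 in 128 bases and the Eed stretch 11 in 243 bases. RefSeq windows of 300 bases, from 250 before to 50 after the start, were matched for 8 of the 9 members. Those of Cbx8, Cbx7 and Eed held 24, 33 and 17 CG pairs, more than in 80.0%, 91.4% and 68.6% of 32817 such windows, whose median was 7. 4 motifs were searched on both strands, each counted separately so that overlapping matches count for both. The E-box CACGTG occurred once in the Cbx8 window and not in those of Cbx7 or Eed (7.1% of all windows hold it). The core of the dioxin response element, GCGTG, matched 5 times in the Cbx7 window, once in that of Cbx8 and not in that of Eed (32.4% of all windows). CCAAT matched 2 times for Cbx8, once for Cbx7 and once for Eed (37.4% of all windows), and GGGCGG once for Cbx8, once for Cbx7 and not for Eed (35.6% of all windows). These are matches of letters and say nothing of occupancy.

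Per kilobase of exon, the messages fell into 4 levels over the 30 libraries. Mtf2 had a median of 71.3 CPM per kb (range 54.3 to 85.6), Suz12 70.5 (52.1 to 101) and Eed 55.6 (42.4 to 74.7), and these 3 ranges overlapped. Below them and apart from them stood Cbx7 at 30.9 CPM per kb (26.3 to 34.8), Jarid2 at 29.6 (20.97 to 33.97) and Ezh2 at 26.1 (22.9 to 30.6), which overlapped one another. Cbx2, at 8.94 CPM per kb (6.96 to 11.7), and Ezh1, at 5.37 (4.31 to 7.59), overlapped in turn. Cbx8 was lowest in every library, at 1.35 CPM per kb (0.604 to 2.32). The ratio of the highest to the lowest of the 10 group means, in CPM, was 2.76 for Cbx8 and lay between 1.23, for Ezh2, and 1.66, for Eed, in the other 8 members.

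**Figure D1:**
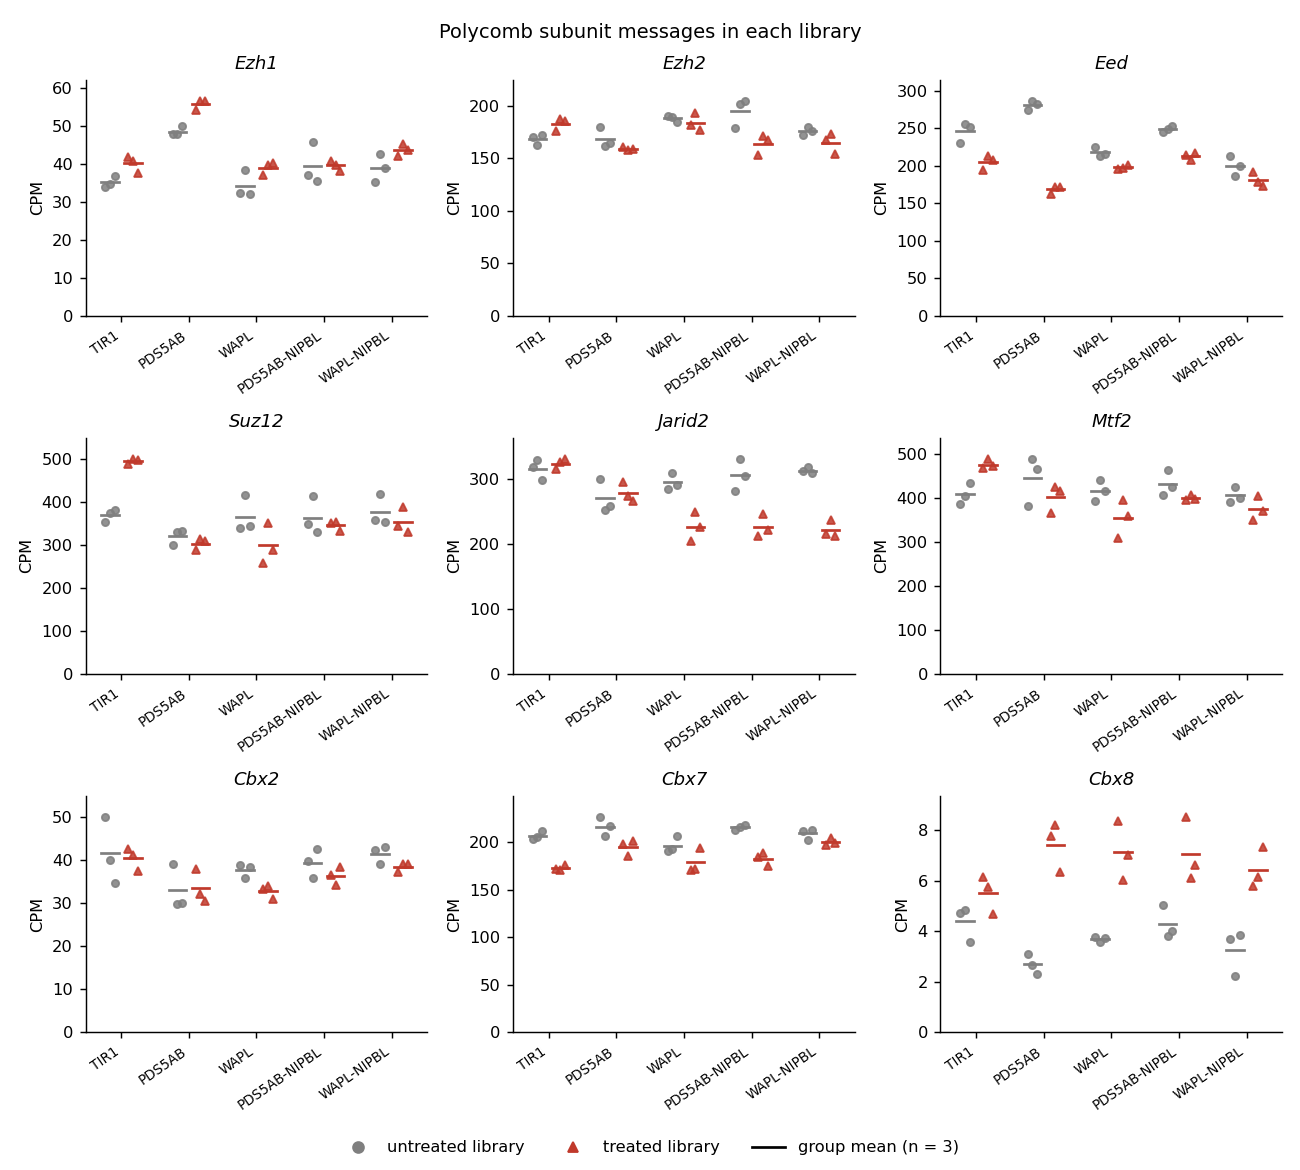
Level of each of the 9 messages in CPM (y axes start at 0) in every library, by line on the x axis. Grey circles are untreated libraries, red triangles treated ones, and bars the means of 3 libraries. The treated Cbx8 libraries of the 4 degron lines, from 5.80 to 8.52 CPM, stand above all untreated ones, which reach 5.06 CPM. Eed in treated PDS5AB libraries lies at 162 to 172 CPM.

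The treatments changed few of these messages by much, and Cbx8 was the 1 member called, and called higher, in all 4 degron lines. A gene was called at an edgeR adjusted p under 0.05. In the PDS5AB line 4 members were called, 2 higher and 2 lower, where 46% of all genes tested were called, 25.8% higher and 20.2% lower. In the WAPL line 4 were called, 1 higher and 3 lower (all genes 32.8%, 17% higher and 15.8% lower). In the PDS5AB-NIPBL line 5 were called, 1 higher and 4 lower (all genes 19.5%, 11.4% higher and 8.06% lower), and in the WAPL-NIPBL line 2, 1 higher and 1 lower (all genes 8.57%, 5.11% higher and 3.45% lower). In the TIR1 line 3 were called, 1 higher and 2 lower (all genes 19.9%, 10.4% higher and 9.59% lower). With 9 members these counts lie near the share of all genes called in the PDS5AB and WAPL lines and above it in the other 3, and with 9 genes nothing further is read from them. The median log2 fold change of the members was -0.08, -0.14, -0.12 and -0.10 in the PDS5AB, WAPL, PDS5AB-NIPBL and WAPL-NIPBL lines and 0.12 in TIR1, against medians of all genes between -0.01 and 0.04. Treated and untreated libraries did not overlap in CPM for 5, 4, 5 and 2 members in the 4 degron lines, in that order (52.8%, 40.2%, 33.4% and 27% of all genes), and for 6 in TIR1 (39.2%).

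Libraries with the same replicate number deviated together in the 4 degron lines, and a term for the replicate number added calls, over all genes as well as among the members. In the WAPL line 7 members were then called (all genes 37%, against 32.8% without the term), as Ezh1 (log2 0.19, edgeR adjusted p = 0.0412), Eed (-0.14, edgeR adjusted p = 0.0432) and Cbx7 (-0.14, edgeR adjusted p = 0.0327) joined. In the PDS5AB line Mtf2 joined with that block (-0.14, edgeR adjusted p = 0.0361, all genes 49.9%), and in the WAPL-NIPBL line Eed joined when the block was set within each line (-0.14, edgeR adjusted p = 0.0274, all genes 18.7%). DESeq2 also called Eed and Cbx7 in the WAPL line (adjusted p = 0.0383 and 0.0429). Leaving out 1 library also added calls, by edgeR adjusted p: Mtf2 in PDS5AB cells without untreated library 1 (0.018), Ezh1 in WAPL cells without treated library 1 (0.0488) or untreated library 2 (0.0141), and Cbx7 in WAPL cells without treated library 3 (0.0239).

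**Figure D2:**
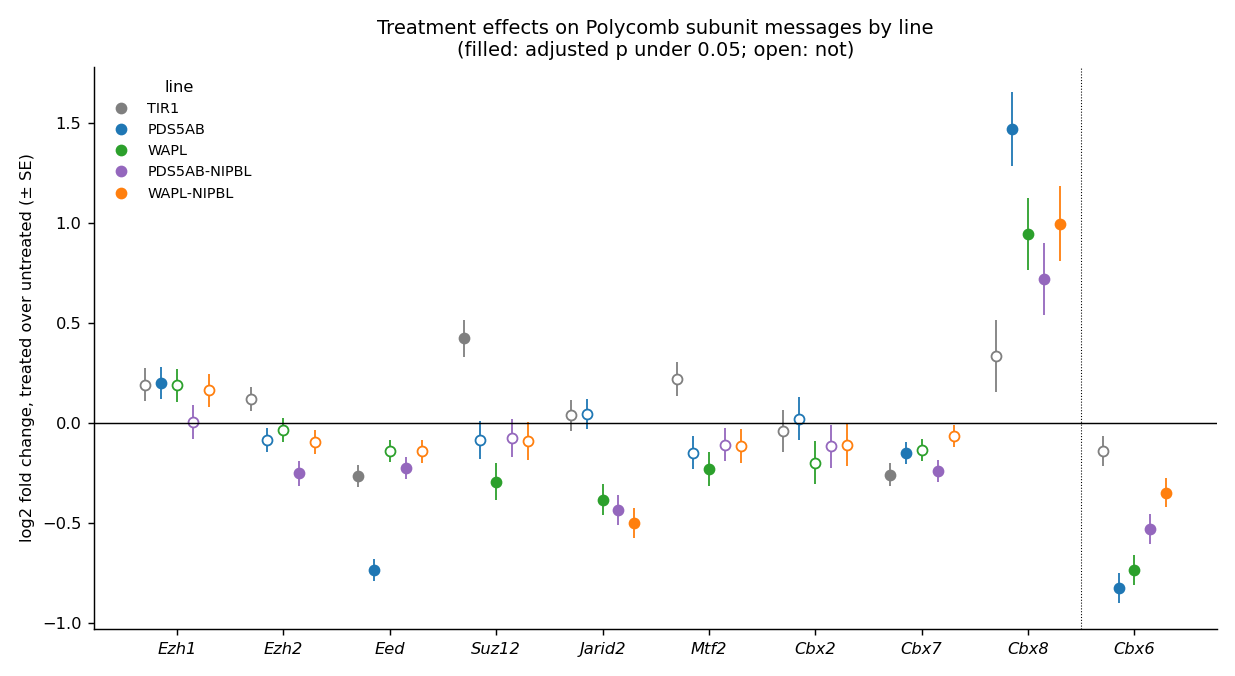
Log2 fold change of treated over untreated cells with its standard error (y axis) for the 9 members and, right of the dotted line, Cbx6 (x axis), by line. Filled points have an edgeR adjusted p under 0.05. Cbx8 lies between 0.72 and 1.47 in the 4 degron lines and at 0.33 in TIR1, and Eed reaches -0.73 in the PDS5AB line.

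Among the catalytic subunits, Ezh2 fell in the PDS5AB-NIPBL line and was not called in another line. Its 3 untreated libraries there stood at 179, 202 and 204 CPM and its treated ones at 153, 171 and 168 CPM, so the groups did not overlap. The log2 fold change was -0.25 (SE 0.06, edgeR adjusted p = 0.00308). In the PDS5AB, WAPL, WAPL-NIPBL and TIR1 lines it was -0.08, -0.03, -0.10 and 0.12, none called.

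Ezh1, the paralogue linked to cells that no longer divide, was highest in the PDS5AB line in both states. Untreated PDS5AB libraries gave 47.7, 47.8 and 49.8 CPM and treated ones 54.2, 56.5 and 56.5 CPM. These groups did not overlap, and the change was log2 0.20 (SE 0.08, edgeR adjusted p = 0.043). That call was lost when any 1 of the 6 PDS5AB libraries was left out (edgeR adjusted p = 0.0611 to 0.117), without the filter on low counts (0.163) and in a fit on the PDS5AB groups alone (0.0661). The estimates in TIR1, WAPL and WAPL-NIPBL cells were of similar size, 0.19, 0.19 and 0.16, and were not called, and that in PDS5AB-NIPBL cells was 0.01.

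The ratio of Ezh2 to Ezh1 within a library, per kb, fell over the 4 degron lines. Its geometric mean over the lines went from 5.08 to 4.25, a log2 difference of -0.26 with lines between -0.28 and -0.23. An exact permutation test that exchanged treated and untreated labels within the lines gave p = 1.25e-05, the smallest it can give, and an adjusted p of 1.67e-05 over the 4 ratios tested. All 12 same-numbered pairs of libraries had the lower ratio after treatment. In the TIR1 line the difference was -0.07 (exact permutation p = 0.4), and the difference between degron lines and TIR1 was not tested for this ratio. Within a single line, 3 libraries against 3 cannot give an exact p below 0.1.

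Eed, the core subunit that binds methylated lysine 27, had the largest fall of the 9. In the PDS5AB line it stood at 274, 286 and 282 CPM in untreated libraries and at 162, 172 and 172 CPM in treated ones. The groups lay far apart. Eed fell there by 0.73 on the log2 scale (SE 0.06, edgeR adjusted p = 2.05e-11), that is to 0.601 of its untreated level.

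Smaller falls of Eed were called in PDS5AB-NIPBL cells, from 249 ± 3.96 to 213 ± 4.51 CPM (SD, n = 3; log2 -0.22, edgeR adjusted p = 0.00472), and in TIR1 cells under auxin alone, from 246 ± 13.3 to 205 ± 10.03 CPM (log2 -0.26, edgeR adjusted p = 0.00128). In WAPL and WAPL-NIPBL cells the estimates were both -0.14 and were not called (edgeR adjusted p = 0.0576 and 0.13). The fall in PDS5AB cells was larger than in TIR1 cells by 0.47 on the log2 scale (SE 0.08, edgeR adjusted p = 6.3e-05). It was also larger than in PDS5AB-NIPBL cells, by 0.51 (SE 0.08, edgeR adjusted p = 0.000123). Of the 3828 exon bases of Eed, 261 are shared with the opposite-strand gene E230029C05Rik, whose counts were 10 to 56 per library.

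Suz12, the scaffold of the PRC2 core, rose in auxin-treated TIR1 cells. The untreated libraries gave 352, 374 and 381 CPM and the treated ones 488, 498 and 496 CPM. The treated TIR1 libraries stood above every other library of the series, the next being an untreated WAPL-NIPBL library at 417 CPM. The change was log2 0.42 (SE 0.09, edgeR adjusted p = 0.00183). It did not recur in the degron lines, whose treatment also held auxin. In PDS5AB, WAPL, PDS5AB-NIPBL and WAPL-NIPBL cells the log2 fold changes were -0.08, -0.29, -0.07 and -0.09, each below that of TIR1 by 0.50 to 0.71 (edgeR adjusted p between 0.000206 and 0.0165 for the differences).

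The fall of Suz12 in WAPL cells was called (SE 0.09, edgeR adjusted p = 0.0168), but its groups overlapped. Untreated libraries gave 339, 415 and 342 CPM and treated ones 258, 351 and 287 CPM. The treated library at 351 CPM lay above 2 of the untreated ones and carried the same replicate number as the untreated library at 415 CPM. Within same-numbered pairs the treated library was lower in 3 of 3, and with the replicate block the edgeR adjusted p was 0.000926, or 2.69e-06 within lines. Without the block, leaving out treated library 1 or 3 or untreated library 2 ended the call (edgeR adjusted p = 0.145, 0.106 and 0.178), as did a fit on the WAPL groups alone (edgeR adjusted p = 0.148).

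Jarid2, the accessory subunit with an inactive Jumonji domain, fell in 3 of the 4 degron lines. In WAPL cells it went from 285, 310 and 291 CPM to 204, 249 and 226 CPM. In PDS5AB-NIPBL cells it went from 282, 330.0 and 304 CPM to 212, 245 and 221 CPM, and in WAPL-NIPBL cells from 311, 318 and 309 CPM to 215, 237 and 212 CPM. No treated library of these lines reached any untreated one. In that order of lines, Jarid2 fell by 0.38, 0.43 and 0.50 on the log2 scale (SE 0.08 each, edgeR adjusted p = 0.000203, 9.62e-05 and 3.58e-05).

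In the PDS5AB line Jarid2 was not called. It was at 299, 252 and 258 CPM untreated and at 296, 274 and 266 CPM treated, with overlapping groups and a log2 change of 0.04 (95% interval -0.11 to 0.20). The effect in PDS5AB-NIPBL cells was below that in PDS5AB cells by 0.48 (SE 0.11, edgeR adjusted p = 0.00404). Auxin alone gave 0.04 in TIR1 cells (edgeR adjusted p = 0.779), and the falls in WAPL, PDS5AB-NIPBL and WAPL-NIPBL cells exceeded that value by 0.42, 0.47 and 0.54 (edgeR adjusted p = 0.00479, 0.00415 and 0.00177).

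Mtf2, a Polycomb-like subunit that binds unmethylated CpG-rich DNA, was called in the WAPL line alone without the block, where its groups overlapped. Its levels there were 394, 441 and 416 CPM untreated and 310, 396 and 360.0 CPM treated, lower in each of the 3 same-numbered pairs. The log2 fold change was -0.23 (SE 0.08, edgeR adjusted p = 0.035), and with the replicate block the edgeR adjusted p was 0.00161, or 8.95e-05 within lines. Mtf2 was lower after treatment in 12 of 12 same-numbered pairs of the degron lines, and both blocks called it in PDS5AB cells as well (edgeR adjusted p = 0.0361 and 0.00901) but not in either NIPBL line. Without the block, the WAPL call ended when treated library 1 or 3 or untreated library 2 or 3 was left out (edgeR adjusted p = 0.0818 to 0.26), and in a fit on the WAPL groups alone (edgeR adjusted p = 0.173). In TIR1 cells Mtf2 went from 409 ± 24.1 to 476 ± 10.6 CPM without overlap, and was not called (log2 0.22, edgeR adjusted p = 0.0647). It was called there by DESeq2 (adjusted p = 0.0495), without the filter on low counts (edgeR adjusted p = 0.0185), on the TIR1 groups alone (0.0128) and under the replicate block (0.00516), although same-numbered TIR1 libraries did not deviate together. The effects in PDS5AB and WAPL cells were below that of TIR1 by 0.37 and 0.45 (edgeR adjusted p = 0.0221 and 0.00664). Of its 5698 exon bases, 395 are shared with Tmed5 on the opposite strand, which had 668 to 2087 counts per library, so the level of Mtf2 is uncertain to that extent.

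Cbx8, a PRC1 subunit that is scarce in stem cells, rose in every degron line. Untreated PDS5AB libraries held 3.10, 2.68 and 2.32 CPM and treated ones 7.80, 8.20 and 6.34 CPM. In WAPL cells the values were 3.77, 3.56 and 3.74 CPM before and 8.36, 6.01 and 7.01 CPM after treatment. Both lines had all treated libraries well above all untreated ones.

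In PDS5AB-NIPBL cells Cbx8 stood at 5.06, 3.83 and 4.00 CPM untreated and at 8.52, 6.11 and 6.63 CPM treated. In WAPL-NIPBL cells it stood at 3.695, 2.22 and 3.84 CPM untreated and at 5.80, 6.16 and 7.34 CPM treated. These groups did not overlap either. The log2 fold changes were 1.47 (SE 0.18), 0.94 (SE 0.18), 0.72 (SE 0.18) and 1.00 (SE 0.19) in the PDS5AB, WAPL, PDS5AB-NIPBL and WAPL-NIPBL lines. Their edgeR adjusted p were 1.46e-07, 0.000128, 0.00469 and 0.000509. Left without treated library 1, the PDS5AB-NIPBL change had an edgeR adjusted p of 0.0502.

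Auxin-treated TIR1 cells had 6.14, 5.74 and 4.68 CPM of Cbx8, against 4.74, 4.84 and 3.58 CPM untreated. These groups overlapped, and the change of log2 0.33 (95% interval -0.03 to 0.70) was not called (edgeR adjusted p = 0.196). The rise in PDS5AB cells exceeded it by 1.13 (SE 0.26, edgeR adjusted p = 0.00144). For WAPL, PDS5AB-NIPBL and WAPL-NIPBL cells the excess was 0.61 (95% interval 0.09 to 1.13), 0.38 (-0.14 to 0.91) and 0.66 (0.13 to 1.19), and none was called (edgeR adjusted p = 0.0896, 0.377 and 0.123). A rise of Cbx8 beyond that under auxin alone was thus called for PDS5AB alone. Untreated PDS5AB cells also held the least Cbx8 of all groups, and the treated means of the 4 lines, 6.43 to 7.44 CPM, lay closer together than the untreated means, 2.699 to 4.29 CPM. The rise in PDS5AB cells exceeded that in PDS5AB-NIPBL cells by 0.75 (SE 0.26, edgeR adjusted p = 0.0646), a difference that was called under both blocks (edgeR adjusted p = 0.0299 additive, 0.00839 within lines). Cbx8 rests on 63 to 254 counts per library, the fewest of the 9.

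Cbx7 fell slightly where it was called. In TIR1 cells its libraries gave 203, 205 and 212 CPM untreated and 172, 171 and 176 CPM under auxin. In PDS5AB-NIPBL cells they gave 212, 216 and 218 CPM untreated and 184, 189 and 175 CPM treated. In both lines the groups did not overlap. The log2 fold changes were -0.26 (SE 0.06, edgeR adjusted p = 0.00131) and -0.24 (SE 0.06, edgeR adjusted p = 0.00229).

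In PDS5AB cells Cbx7 was called at log2 -0.15 (SE 0.06, edgeR adjusted p = 0.0271), a call that ended without the filter on low counts (edgeR adjusted p = 0.107) and without untreated library 1 or 3 or treated library 2 (edgeR adjusted p = 0.117, 0.057 and 0.137). In WAPL and WAPL-NIPBL cells the estimates were -0.14 and -0.06, neither called without the replicate block. The effects on Cbx7 in the degron lines were above that of TIR1 by 0.02 to 0.19, and no such difference was called (edgeR adjusted p at least 0.136). The highest, in WAPL-NIPBL cells, had a 95% interval of 0.03 to 0.35. Cbx7 shares 100 of its 6487 exon bases with Apobec3 on the opposite strand, which had 1511 to 5107 counts per library.

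Cbx2 was called in none of the 5 treatment effects. Its log2 changes were -0.04, 0.02, -0.20, -0.12 and -0.11 in TIR1, PDS5AB, WAPL, PDS5AB-NIPBL and WAPL-NIPBL cells, with 95% intervals that reach from -0.42 to 0.24 over the 5 lines. Libraries ranged from 29.6 to 49.8 CPM, and only in the WAPL line, of the 5, did treated and untreated ones not overlap.

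Cbx6, a widely expressed Polycomb Cbx paralogue outside the 9, fell in all 4 degron lines. It went from 67.0, 60.2 and 61.2 CPM to 36.8, 37.3 and 32.2 CPM in PDS5AB cells, by 0.83 on the log2 scale (edgeR adjusted p = 3.82e-10, SE 0.075). In WAPL, PDS5AB-NIPBL and WAPL-NIPBL cells it fell by 0.73, 0.53 and 0.35 on the log2 scale (edgeR adjusted p = 5.54e-09, 4.97e-06 and 0.00195). The TIR1 estimate was -0.14, not called (edgeR adjusted p = 0.184, or 0.0382 without untreated library 3). The fall in WAPL-NIPBL cells was smaller than in WAPL cells by 0.38 (SE 0.10, edgeR adjusted p = 0.0249), a call that ended without any 1 of 7 of the 12 libraries, without the filter on low counts (edgeR adjusted p = 0.0585) and on the compared groups alone (0.0646).

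Some of the Polycomb Cbx genes are neighbours. On GRCm38 chromosome 11, Cbx2 (119022962 to 119031270, plus strand) lies 5034 bases from Cbx8 (119036305 to 119040969, minus strand), with no gene between. Cbx8 rose in the 4 degron lines and Cbx2 was not called. On chromosome 15, Cbx6 (79823896 to 79834688) and Cbx7 (79915807 to 79971119), both on the minus strand, are 81118 bases apart with 3 genes between. Both fell in PDS5AB and PDS5AB-NIPBL cells, as given above. By edgeR without the replicate block, Cbx6 alone was called in WAPL and WAPL-NIPBL cells and Cbx7 alone in TIR1 cells. With the block, and by DESeq2, Cbx7 was called in WAPL cells as well. Over the 10 group means of log2 CPM, Pearson's r was -0.25 between Cbx8 and Cbx2 and 0.35 between Cbx7 and Cbx6, given as a description of groups that share lines.

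The mixture of the Cbx2, Cbx6, Cbx7 and Cbx8 messages moved without a change of its leading member. Per kb of exon, Cbx7 held 58.8% to 72.3% of their sum in every one of the 30 libraries, and no treatment put another of the 4 first. Cbx8 held 1.54% ± 0.167 (SD, n = 3) before and 4.68% ± 0.654 after treatment in PDS5AB cells, and 2.12% ± 0.0658 and 4.68% ± 0.811 in WAPL cells. In PDS5AB-NIPBL and WAPL-NIPBL cells its share went from 2.35% to 4.49% and from 1.75% to 3.69%, and in TIR1 cells from 2.37% to 3.38%, where untreated libraries (2.01% to 2.63%) and treated ones (2.90% to 3.71%) did not overlap either. The share of Cbx6 went from 12.4% to 7.72%, from 15.3% to 10.5%, from 12.3% to 9.90% and from 14.5% to 12.1% in PDS5AB, WAPL, PDS5AB-NIPBL and WAPL-NIPBL cells, and from 14.9% to 15.3% in TIR1. Fragments of Cbx6 can also fall on the same-strand gene Npcd, which shares 563 of its 10609 exon bases and had at most 1 count per library.

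**Figure D3:**
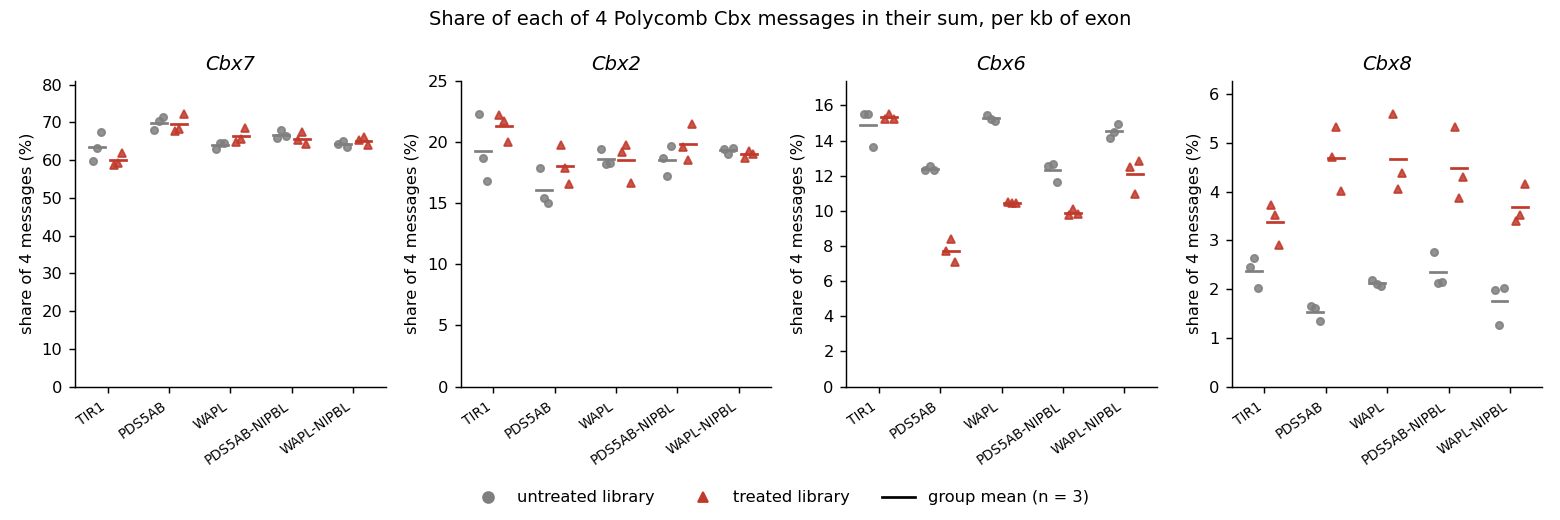
Share of Cbx7, Cbx2, Cbx6 and Cbx8 in their sum, per kb of exon (percent, y axes start at 0 and differ), in every library by line. Grey circles are untreated and red triangles treated libraries, with bars at the means of 3. Cbx7 stays between 58.8% and 72.3%, while Cbx8 stands higher after treatment in all 5 lines, TIR1 included, and Cbx6 lower in the 4 degron lines.

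Ratios between paralogues within a library do not depend on library scaling. Cbx7 to Cbx8, per kb, went from a geometric mean of 34.9 to 15.4 over the 4 degron lines, a log2 difference of -1.18 with lines between -1.61 and -0.96. Cbx2 to Cbx8 went from a geometric mean of 9.54 to 4.35, a log2 difference of -1.13. Each fell in 12 of 12 pairs, with an exact permutation p = 1.25e-05, the smallest possible, and an adjusted p of 1.67e-05. Both ratios use the same Cbx8 counts, so they are independent neither of each other nor of the Cbx8 rise given above. Cbx7 to Cbx2 differed by -0.05 (exact permutation p = 0.366, lower in 7 of 12 pairs), with lines between -0.18 and 0.06.

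The Cbx7 to Cbx8 ratio was also lower in each auxin-treated TIR1 library than in each untreated one. Its log2 mean there was 4.75 ± 0.273 untreated and 4.16 ± 0.228 treated (SD, n = 3), a difference of -0.59 with an exact permutation p of 0.1, the smallest that 3 against 3 allows. In PDS5AB, WAPL, PDS5AB-NIPBL and WAPL-NIPBL cells the differences were -1.61, -1.08, -0.96 and -1.08. Whether a line's ratio changed by more than that of TIR1 was not tested for the ratios.

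**Figure D4:**
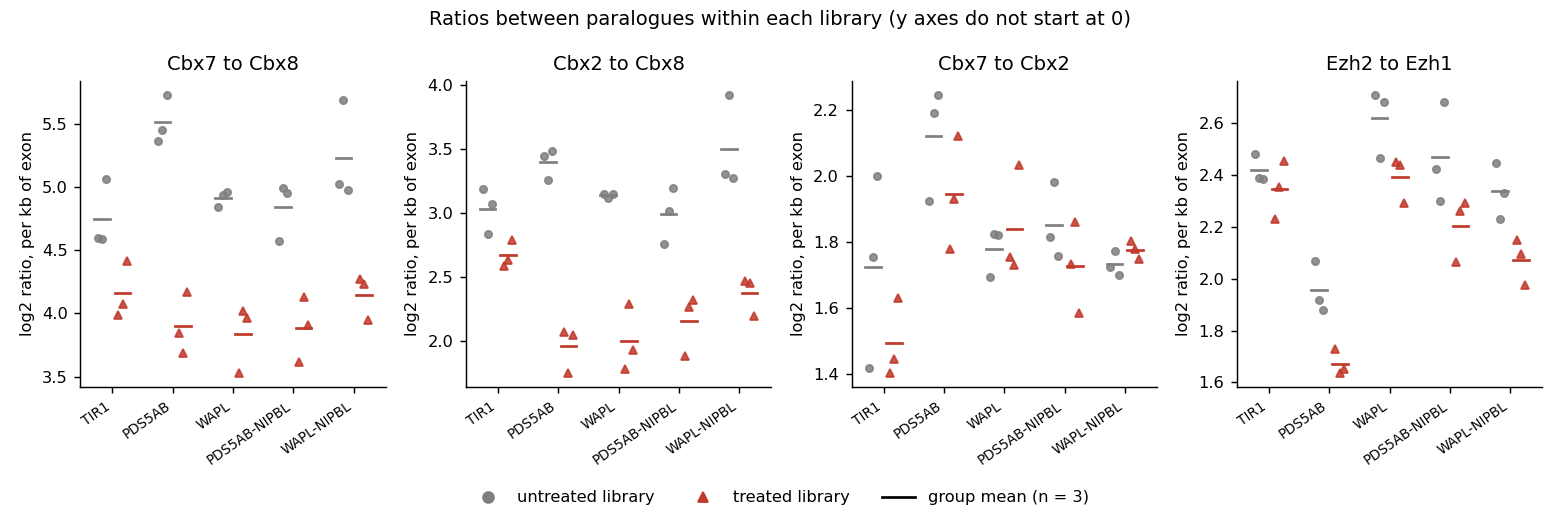
Log2 ratio between paralogue messages per kb of exon (y axes, which do not start at 0) in every library by line. Grey circles are untreated and red triangles treated libraries, with bars at the means of 3. Cbx7 to Cbx8 and Cbx2 to Cbx8 separate treated from untreated libraries in each line, with the smallest steps, -0.59 and -0.36, in TIR1. Ezh2 to Ezh1 steps by -0.23 to -0.28 in the 4 degron lines.

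Before treatment, the untreated PDS5AB line differed from untreated TIR1 in 5 members, 2 higher and 3 lower, where 32% of all genes were called, 15.5% higher and 16.5% lower. Ezh1 was higher by log2 0.47 (SE 0.08, edgeR adjusted p = 4.33e-05) and Eed by 0.19 (SE 0.06, edgeR adjusted p = 0.00968). Cbx8 was lower by 0.70 (edgeR adjusted p = 0.00512), Cbx2 by 0.34 (edgeR adjusted p = 0.0148) and Jarid2 by 0.22 (edgeR adjusted p = 0.0221). In CPM, both Cbx2 and Jarid2 had overlapping groups, and their calls ended without TIR1 library 1, without PDS5AB library 2 or 3 and, for Jarid2, without TIR1 library 2 (edgeR adjusted p = 0.0576 to 0.201). Both also ended in a fit on the compared groups alone (0.109 and 0.0753), and that of Jarid2 without the filter on low counts (0.053). That of Eed ended without TIR1 library 1 (edgeR adjusted p = 0.0851). The replicate block added Suz12, at -0.20 (edgeR adjusted p = 0.0196).

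The other untreated lines differed from TIR1 in 1 member each. Eed was lower in WAPL cells by 0.18 (edgeR adjusted p = 0.0365, where 14% of all genes were called, 6.62% higher and 7.39% lower) and in WAPL-NIPBL cells by 0.30 (edgeR adjusted p = 0.000175, where it was 28%, 13.4% higher and 14.6% lower). The WAPL value lost its call without untreated TIR1 or WAPL library 2 or 3 (edgeR adjusted p = 0.12 to 0.165), without the filter on low counts (0.222) and on the compared groups alone (0.111). Ezh2 was higher in PDS5AB-NIPBL cells by 0.21 (edgeR adjusted p = 0.00695, where it was 34.3%, 16.5% higher and 17.8% lower), and so, under the replicate block, in WAPL cells, by 0.16 (edgeR adjusted p = 0.0487). Untreated WAPL-NIPBL and WAPL cells, which lie within a set of library numbers, differed in 0 of the 9 members by edgeR, where 10.7% of all genes were called, 4.99% higher and 5.67% lower. At an unadjusted p under 0.05, 2 members passed (Ezh1 and Eed), and 0 were called by DESeq2.

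Set against the effect in TIR1, 4 members were called for PDS5AB, 1 higher and 3 lower (all genes 26.3%, 13.9% higher and 12.4% lower), and 3 for WAPL, each lower (all genes 20.7%, 9.86% higher and 10.9% lower). For PDS5AB-NIPBL 3 were called, each lower (all genes 10.1%, 5.28% higher and 4.81% lower), and for WAPL-NIPBL 2, each lower (all genes 7.04%, 3.1% higher and 3.94% lower). Suz12 was lower in all 4 of these comparisons, which share the same TIR1 libraries. The other members called were Eed, Mtf2 and Cbx8 for PDS5AB, Jarid2 and Mtf2 for WAPL, Ezh2 and Jarid2 for PDS5AB-NIPBL, and Jarid2 for WAPL-NIPBL. With the replicate block Mtf2 was called too for PDS5AB-NIPBL (-0.32, edgeR adjusted p = 0.00639) and WAPL-NIPBL (-0.34, edgeR adjusted p = 0.00639).

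Adding NIPBL-FKBP and dTAG-13 went with a different response of 2 members in the PDS5AB background, Eed and Jarid2, as given above (all genes 9.46%, 4.97% higher and 4.48% lower). With the block within lines Ezh2 was called as well (-0.17, edgeR adjusted p = 0.0449), beside Cbx8 (all genes 22.1%). In the WAPL background 0 members were called by edgeR (all genes 5.19%, 3.03% higher and 2.16% lower), 0 passed at an unadjusted p under 0.05, 0 were called by DESeq2, and Suz12 was called with the block within lines (0.21, edgeR adjusted p = 0.0265, all genes 13.4%). The single and combined lines differ in clone, in RAD21-Halo and in agent as well as in NIPBL-FKBP. In the PDS5AB background they also differ in the set of library numbers. None of these can be told apart.

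Other genes of the Polycomb system were counted from fixed lists, to be read against the share of all genes called in each line, which was 46% in PDS5AB, 32.8% in WAPL, 19.5% in PDS5AB-NIPBL, 8.57% in WAPL-NIPBL and 19.9% in TIR1 cells. Of 9 other PRC2 genes, 2 rose and 3 fell in PDS5AB cells, 3 rose and 3 fell in WAPL cells, with 1 rise and 1 fall in each of the PDS5AB-NIPBL, WAPL-NIPBL and TIR1 lines. Ezhip, which inhibits PRC2 in germ cells, rose in all 4 degron lines, by log2 1.64, 1.14, 0.89 and 0.90 (edgeR adjusted p = 6.79e-07, 7.04e-05, 0.0248 and 0.00854), from group means of 0.722 to 2.52 CPM. The PDS5AB-NIPBL call of Ezhip ended without any 1 of 4 of its 6 libraries and in a fit on those groups alone (edgeR adjusted p = 0.0695), and the WAPL-NIPBL call without untreated library 3. Epop, an accessory subunit that ties PRC2 to elongin, fell in WAPL cells from 259 ± 18.4 to 111 ± 9.68 CPM (log2 -1.23, edgeR adjusted p = 1.64e-11) and also fell in WAPL-NIPBL and PDS5AB cells, by 0.44 and 0.45 (edgeR adjusted p = 0.00171 and 0.000135). Phf19, the Polycomb-like paralogue of Mtf2, rose in PDS5AB cells from 2.33 to 6.02 CPM (log2 1.37, edgeR adjusted p = 2.09e-06) and in WAPL cells from 2.55 to 4.69 CPM (log2 0.88, edgeR adjusted p = 0.0011). It fell in TIR1 cells from 2.65 to 1.43 CPM (log2 -0.88, edgeR adjusted p = 0.00517). Rbbp4, a histone-binding core partner, fell by 0.46 in WAPL, 0.38 in PDS5AB and 0.24 in PDS5AB-NIPBL cells (edgeR adjusted p = 4.01e-07, 6.16e-06 and 0.00357). Aebp2, another accessory subunit, rose by log2 0.48 in TIR1 cells (edgeR adjusted p = 1.68e-06) and fell by 0.27 in WAPL and 0.17 in PDS5AB cells (edgeR adjusted p = 0.00101 and 0.0281). The PDS5AB call of Aebp2 ended without the filter on low counts and without untreated library 1 or treated library 2 or 3 (edgeR adjusted p = 0.0599 to 0.087).

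Of 11 core and canonical PRC1 genes outside the members, 5 rose and 3 fell in PDS5AB, 3 rose and 4 fell in WAPL, 2 rose and 4 fell in PDS5AB-NIPBL, and 2 rose and 2 fell in WAPL-NIPBL cells, with 1 and 1 in TIR1. Besides Cbx6, Bmi1, a PRC1 ring-finger partner, rose in all 5 lines, by log2 0.55 in PDS5AB, 0.47 in WAPL, 0.53 in PDS5AB-NIPBL, 0.41 in WAPL-NIPBL and 0.40 in TIR1 cells (edgeR adjusted p = 1.01e-05, 0.000127, 6.26e-05, 0.00358 and 0.00229). Phc2, a polyhomeotic subunit, rose by log2 0.56 in PDS5AB cells (edgeR adjusted p = 0.000181). Its paralogue Phc1 fell in all 5 lines, by 0.49, 0.38, 0.41, 0.46 and 0.39 in the same order (edgeR adjusted p = 3.13e-06, 0.00019, 0.000137, 7.9e-05 and 0.000348). Scml2 rose by log2 0.86 in WAPL and 0.50 in PDS5AB cells (edgeR adjusted p = 0.000521 and 0.0126), the latter a call that ended without untreated library 2 or treated library 2 or 3 (edgeR adjusted p = 0.0523 to 0.0667).

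Of 20 variant PRC1 genes, 7 rose and 8 fell in PDS5AB, 4 rose and 8 fell in WAPL, 1 rose and 3 fell in PDS5AB-NIPBL, 2 rose and 4 fell in WAPL-NIPBL, and 5 rose and 0 fell in TIR1 cells. Wdr5, which also serves histone H3 lysine 4 methyltransferases, fell in all 4 degron lines, by 1.14, 0.82, 0.60 and 0.44 on the log2 scale (edgeR adjusted p = 1.24e-14, 1.22e-11, 2.12e-08 and 8.9e-06). Rybp, which stimulates the PRC1 ubiquitin ligase, fell by 0.43 in both WAPL and WAPL-NIPBL cells and by 0.31 in PDS5AB cells (edgeR adjusted p = 0.000128, 0.000733 and 0.00259), and rose by log2 0.24 in TIR1 cells (edgeR adjusted p = 0.0348). Kdm2b, which brings variant PRC1 to CpG islands, fell by 0.41 in PDS5AB-NIPBL and 0.40 in WAPL cells (edgeR adjusted p = 0.00812 and 0.00541). Pcgf5, a ring-finger partner, rose by log2 0.74 in PDS5AB and 0.38 in WAPL cells (edgeR adjusted p = 4.17e-05 and 0.0262). Auts2 rose by log2 0.51 in TIR1 and 0.33 in PDS5AB cells (edgeR adjusted p = 6.13e-05 and 0.00388). Pcgf3, another ring-finger partner, rose by log2 0.53 in PDS5AB, 0.37 in TIR1, 0.28 in PDS5AB-NIPBL and 0.23 in WAPL cells (edgeR adjusted p = 8.12e-06, 0.00235, 0.0186 and 0.0332). Leaving out 1 library ended the calls of Rybp in TIR1 (any 1 of 5 of the 6), Pcgf3 in WAPL (untreated 1 or 3, treated 2 or 3) and PDS5AB-NIPBL (untreated 1, treated 1 or 2), and Pcgf5 in WAPL cells (untreated 1 or 3, treated 2). Their edgeR adjusted p then lay between 0.0539 and 0.324, and the Pcgf5 call in WAPL also ended in a fit on the WAPL groups alone (0.0784).

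A further list held enzymes that remove Polycomb marks together with their partner proteins. Of 13 genes of the Polycomb deubiquitinase and the lysine 27 demethylases, 2 rose and 3 fell in PDS5AB, 0 rose and 2 fell in WAPL, and 3 rose and 0 fell in TIR1. For PDS5AB-NIPBL and WAPL-NIPBL cells in turn, 0 were called by edgeR, 1 and 0 passed at an unadjusted p under 0.05, and DESeq2 called 1 and 0. Kdm6b, a demethylase, rose by log2 0.49 in PDS5AB and 0.40 in TIR1 cells (edgeR adjusted p = 9.41e-05 and 0.00352). Hcfc1 fell by 0.43 in PDS5AB cells and Asxl2 rose by log2 0.43 in TIR1 cells (edgeR adjusted p = 0.000233 and 0.00881). Bap1 also fell in PDS5AB cells, by 0.14 (edgeR adjusted p = 0.0364), and Foxk2 rose in TIR1 cells, by log2 0.21 (edgeR adjusted p = 0.011). The Bap1 call in PDS5AB ended without the filter on low counts, in a fit on the PDS5AB groups alone, and without untreated library 1 or 2 or treated library 2 or 3 (edgeR adjusted p = 0.0694 to 0.175), and the Foxk2 call in TIR1 without the filter on low counts (0.055) and without untreated library 3 (0.0631). The falls of Bap1 and Foxk2 in WAPL cells, both 0.16, ended in fits without the filter on low counts, on the WAPL groups alone, and without any 1 of 5 of the 6 WAPL libraries. Of the heterochromatin paralogues Cbx1, Cbx3 and Cbx5, which read lysine 9 methylation, Cbx1 and Cbx3 fell in PDS5AB cells (by 0.41 and 0.44) and in WAPL cells (by 0.31 and 0.26), and Cbx1 rose by log2 0.24 in TIR1 cells. In either NIPBL line 0 of these 3 were called by edgeR or DESeq2, and 0 passed at an unadjusted p under 0.05. The Cbx3 fall in WAPL cells ended in a fit on the WAPL groups alone (edgeR adjusted p = 0.0928) and without untreated library 2 or treated library 1 or 3 (edgeR adjusted p = 0.0702 to 0.118).

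Among 24 developmental genes known as PRC2 targets, 20 passed the filter on low counts. Of these, 9 rose and 1 fell in PDS5AB, 11 rose and 1 fell in WAPL, 6 rose and 1 fell in PDS5AB-NIPBL, 5 rose and 0 fell in WAPL-NIPBL, and 3 rose and 0 fell in TIR1 cells. Of all genes tested, 25.8%, 17%, 11.4%, 5.11% and 10.4% were called higher in these lines. The median log2 fold changes of the 20 were 0.93, 1.19, 0.58, 0.69 and 0.22, beside -0.00516 to 0.038 over all genes. Against untreated TIR1, the untreated lines had medians of 0.94, 0.38, 0.63 and 0.12 in the same order of degron lines. There 9, 3, 5 and 3 were called higher and 1, 0, 1 and 3 lower (all genes called 32%, 14%, 34.3% and 28%). Set against the TIR1 effect, 5 were higher and 2 lower for both PDS5AB and WAPL (all genes 26.3% and 20.7%). For each NIPBL line 1 was higher and 2 lower (all genes 10.1% and 7.04%). The 4 that were not tested had too few counts. Since a gene could pass the filter through the group where it is high, these counts and medians are given as a description only. Cdkn2b, a cell-cycle inhibitor, rose in all 4 degron lines, by log2 1.15, 1.26, 0.94 and 0.76 (edgeR adjusted p = 7.41e-08, 1.91e-08, 1.28e-05 and 0.000559), to at most 13.04 CPM. The mesoderm factor T rose by log2 1.48 in WAPL, 0.82 in WAPL-NIPBL, 0.59 in PDS5AB-NIPBL and 2.02 in TIR1 cells (edgeR adjusted p = 1.95e-07, 0.00117, 0.015 and 1.91e-07). Gata4, an endoderm factor, rose in PDS5AB cells from 3.46 to 7.31 CPM and in WAPL cells from 1.38 to 2.24 CPM (edgeR adjusted p = 0.000138 and 0.0352). Eomes fell in PDS5AB-NIPBL cells from 20.98 to 12.03 CPM and in PDS5AB cells by 0.62 on the log2 scale (edgeR adjusted p = 0.000538 and 0.00177). Cdx2, a trophoblast factor, rose in TIR1 cells from 1.45 to 9.90 CPM and in PDS5AB-NIPBL cells by log2 0.69 (edgeR adjusted p = 9.32e-10 and 0.0111). Leaving out 1 library ended the calls of T (untreated 1, treated 1 or 3) and Cdx2 (untreated 2, treated 3) in PDS5AB-NIPBL, Gata4 in WAPL (untreated 1 or 3, treated 1 or 3) and Eomes in PDS5AB cells (untreated 1), with edgeR adjusted p of 0.0571 to 0.144.

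Marker levels of cell state moved with the same treatments. The summed level of the 11 embryonic stem cell markers went from 6483–6853 to 4079–4454 CPM in PDS5AB, from 6509–6714 to 5094–5283 in WAPL, from 6926–7162 to 5651–5926 in PDS5AB-NIPBL and from 6569–6828 to 5502–5758 in WAPL-NIPBL libraries, against 6412–6591 and 6246–6572 in TIR1. The sum of 8 primitive endoderm markers went from 58.3–85.4 to 155–198 CPM, from 57.1–65.2 to 119–126, from 38–41.3 to 77.2–84.6 and from 86.4–106 to 129–158 in the 4 degron lines, and from 39.2–50.4 to 23.8–32.1 in TIR1. No marker of either list was at 0 in any group.

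The other lists moved less evenly. The sum of 6 trophoblast markers went from 82.4–99.3 to 35.3–40.1 CPM in WAPL and from 71.8–80.7 to 49.15–54.1 CPM in WAPL-NIPBL libraries, but from 91.3–98.4 to 142–146.9 CPM in TIR1 and from 66.97–77.3 to 99.5–126.9 CPM in PDS5AB libraries. In PDS5AB-NIPBL libraries it went from 66.2–74.85 to 58.1–67.3 CPM, with overlap. The sum of 5 neural progenitor markers went from 63.1–88.2 to 107.1–127.6 CPM in PDS5AB-NIPBL, from 59.3–77.1 to 85.4–104.7 CPM in PDS5AB and from 83.7–93.35 to 98.1–109.4 CPM in WAPL-NIPBL libraries, and overlapped between treated and untreated libraries in WAPL and TIR1. The sum of 5 mesoderm markers went from 9.66–12.56 to 15.29–18.2 CPM in WAPL and from 14.3–17.15 to 18.6–23.5 CPM in WAPL-NIPBL libraries. That of 6 formative epiblast markers went from 200.7–222.7 to 166–174.2 CPM in TIR1 libraries. These 2 sums overlapped in the other lines. Of the neural markers up to 2 were at 0 in a group, and of the other 3 lists none. A set of 5 markers of the rare cells that resemble the embryo after its first division summed to 18.1–25.7 CPM in untreated and 43.4–59.0 CPM in treated PDS5AB libraries. This sum also went up without overlap in the other degron lines, from 1.13–2.44 to 6.86–9.01 CPM in WAPL, from 0.0948–0.458 to 0.582–0.8997 CPM in WAPL-NIPBL and from 0.0871–0.108 to 0.215–0.303 CPM in PDS5AB-NIPBL libraries, where up to 2 of the 5 were at 0 in a group of either NIPBL line. In TIR1 it was 1.19–1.88 untreated and 1.02–1.375 CPM treated. The sum of 5 fibroblast markers went from 322–415 to 233–281 CPM in PDS5AB and from 444–483 to 370–379 CPM in TIR1 libraries. In WAPL libraries it went from 502–644 to 634–859 CPM with overlap, and it overlapped in both NIPBL lines. Most of it was Vim, which stem cells also express, at 211 to 854 CPM, while Dcn reached at most 0.131 CPM. The part of these marker levels in the changes of the Polycomb messages was not tested.

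By likeness of pattern over the 10 group means of log2 CPM, the genes closest to Cbx7 among 12940 genes that average 50 counts or more were Atrip (Pearson's r = 0.95), Zfp459 (0.92) and Rccd1 (0.92). Those closest to Cbx8 were Srr (0.94), Tnfrsf1a (0.94) and Dkk1 (0.93), and those closest to Cbx2 were H2afy2 (0.96), Ddx54 (0.96) and Msc (0.96). These are descriptions over groups that share lines, and the best of many genes is high by selection.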

How the data were processed

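RNA-seq counts of fragments per gene were deposited as a single table by the authors, raw and not normalized. Per the file headers, it was made with featureCounts 2.0.1 in paired-end mode on GENCODE vM23 exons (GRCm38), with no strand option and none that counts fragments with several alignments or genes, so strand was ignored and ambiguous fragments were dropped. The submitters' processing notes also name cutadapt, STAR 2.7.7a and deepTools. The exon length per gene, in bases, is another deposited column and gave the values per kb. Of 55421 identifiers, 55154 (99.5%) were matched to a symbol, and no column of values belonged to another sample.

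From these counts, edgeR 4.0.16 (R 4.3.3) fitted a mean for each of the 10 groups over all 30 libraries (20 residual degrees of freedom), after filterByExpr with a minimum count of 10 (19868 genes) and TMM scaling (factors 0.95 to 1.13). Quasi-likelihood F-tests of 16 contrasts were adjusted by Benjamini-Hochberg over all 19868, with calls at an adjusted p under 0.05. Standard errors were derived from the F statistic, and intervals are 95%. CPM are TMM-scaled. Likeness used log2 CPM with a prior count of 2. Paralogue ratios and shares used counts per kb, tested by exact two-sided permutation within lines.

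Totals of 19632704 to 45539021 fragments set the counting error. The common biological coefficient of variation was 9.15%, Pearson's r between replicates was at least 0.987, and no pair of libraries was identical. The fitting was tested on simulated data.

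Same-numbered libraries deviated together in the 4 degron lines (lowest pairwise r 0.109, 0.207, 0.163 and 0.186 for PDS5AB, WAPL, PDS5AB-NIPBL and WAPL-NIPBL) but not in TIR1 (-0.0102 to 0.0574), so the numbers pair the samples in the former. The pairing was read from the data, since the labels do not say what a number stands for. Alternatives tried were DESeq2 1.42.0, RLE scaling in edgeR, keeping genes of low count, fits on only the groups compared, a replicate block, a minimum change of 2-fold, leaving out each library in turn and, for ratios, a pseudocount of 1. A replicate block within each degron line was added after seeing the data.

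The text names the 9 members, Cbx6, of each list at most 2 called genes with the largest change per treatment effect and a mean of at least 50 counts, with every line in which such a gene was called, and the 3 genes most alike to each of Cbx7, Cbx2 and Cbx8. The members and lists were chosen with earlier results of these data known. A gene of the core and canonical PRC1 list is not reported here and was left out of the counts.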

Additional observations from a re-analysis of the deposited data

Results flagged for a closer look

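Treatment effects that differed between lines by a test of the difference itself are listed here as log2 differences with edgeR adjusted p. Each comparison with TIR1 uses the same 6 TIR1 libraries and crosses the sets of library numbers, which cannot be told apart from the lines. PDS5AB-NIPBL minus PDS5AB crosses these sets too.

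For PDS5AB minus TIR1, the differences were -0.47 for Eed (6.3e-05), -0.51 for Suz12 (0.00514), -0.37 for Mtf2 (0.0221), 1.13 for Cbx8 (0.00144) and -0.69 for Cbx6 (1.39e-05). For WAPL minus TIR1 they were -0.71 for Suz12 (0.000206), -0.42 for Jarid2 (0.00479), -0.45 for Mtf2 (0.00664) and -0.59 for Cbx6 (9.53e-05). For PDS5AB-NIPBL minus TIR1 they were -0.37 for Ezh2 (0.00481), -0.50 for Suz12 (0.015), -0.47 for Jarid2 (0.00415) and -0.39 for Cbx6 (0.0152). For WAPL-NIPBL minus TIR1 they were -0.51 for Suz12 (0.0165) and -0.54 for Jarid2 (0.00177).

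For PDS5AB-NIPBL minus PDS5AB, the differences were 0.51 for Eed (0.000123) and -0.48 for Jarid2 (0.00404). For WAPL-NIPBL minus WAPL, the difference was 0.38 for Cbx6 (0.0249).

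Some of these calls ended when 1 library was left out, by edgeR adjusted p: Mtf2 in PDS5AB minus TIR1 (0.0826 without untreated PDS5AB library 2), Suz12 in PDS5AB-NIPBL minus TIR1 (0.0536 without untreated PDS5AB-NIPBL library 2), Suz12 in WAPL-NIPBL minus TIR1 (0.0599 without untreated WAPL-NIPBL library 2, 0.0551 without treated library 3) and Cbx6 in PDS5AB-NIPBL minus TIR1 (0.0542 without untreated TIR1 library 3). Cbx6 in WAPL-NIPBL minus WAPL reached 0.0593 to 0.105 without any 1 of 7 libraries, and also lost its call without the filter on low counts (0.0585) and on the compared groups alone (0.0646).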

How the results depend on the processing

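No called value changed sign in any alternative run. With a 2-fold minimum, the members called were 0 for the TIR1, WAPL, PDS5AB-NIPBL and WAPL-NIPBL treatment effects, 1 for PDS5AB (Cbx8), 0 for each baseline against TIR1, 1 for PDS5AB minus TIR1 (Cbx8), and 0 for WAPL, PDS5AB-NIPBL and WAPL-NIPBL minus TIR1 and for PDS5AB-NIPBL minus PDS5AB, since few changes reach that size (1.75% to 13% of all genes in the treatment effects). Without the filter on low counts, 2 members were called for the PDS5AB effect and 0 for the WAPL baseline (22.1% and 6.84% of all genes then tested). On the compared groups alone, 2 were called for the WAPL effect, 3 for the PDS5AB baseline and 0 for the WAPL baseline (27.5%, 29.5% and 14.6%). Leaving out each library in turn gave 2 to 3 for the PDS5AB effect, 2 to 6 for its baseline, 0 to 1 for the WAPL baseline, 1 to 2 for the PDS5AB-NIPBL and WAPL-NIPBL baselines, and 1 to 3 for WAPL-NIPBL minus TIR1. In these 6 comparisons the share of all genes called was below that with every library, also where more members were called. The cause was not tested. With the replicate block, 7 members were called for the WAPL effect and 2 for its baseline (all genes 37% and 18.3%, against 32.8% and 14%). With the block within lines, 7 were called for the WAPL effect, 4 for PDS5AB-NIPBL minus PDS5AB and 1 for WAPL-NIPBL minus WAPL (all genes 43.5%, 22.1% and 13.4%, against 32.8%, 9.46% and 5.19%). Beyond the calls named in the report, the 2 blocks added a call of Cbx6 in PDS5AB-NIPBL minus PDS5AB (edgeR adjusted p = 0.0491 and 0.0107) and changed no other call of the 9 members or Cbx6. RLE size factors moved the median of all genes by less than 0.01 (log2) in every contrast. The mean changes of the 4 ratios kept their side of the threshold with a pseudocount of 1, with paired sign flips (smallest exact p 0.000488, reached by the 3 ratios that fell) and without any 1 library. At this depth, a member not called may still have changed.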
